A study of Mus musculus with 8 samples.

Results

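The genes described here are the lysozymes Lyz1 and Lyz2, the S100 genes S100a8 and S100a9, and 6 genes of neutrophil granules (Mpo, Elane, Prtn3, Lcn2, Ngp and Ltf). They were taken by name as 10 rows of the 23761 genes in a table of RNA-sequencing values from bone marrow-derived macrophages (BMDMs), and all 10 were listed. BMDMs are grown from marrow in medium conditioned by L929 fibroblasts, which supplies the growth factor that drives marrow cells toward macrophages. The study compared 4 libraries of LysM mice (LysM Cre/Cre) with 4 of K2KO mice (LysM Cre/Cre, KLF2 flox/flox), all from mice 3 months old, to learn which genes depend on the transcription factor KLF2 in myeloid cells. Descriptions of the samples mark every library as vehicle (veh). Both genotypes therefore carry 2 copies of Cre at the lysozyme M locus, which is Lyz2 itself, and differ by the floxed Klf2. Columns of the table give the genotype and a number from 0 to 3 but could not be matched to single mice, and the libraries are called LysM0 to LysM3 and K2KO0 to K2KO3 by those numbers.

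Lysozyme cleaves the cell wall of bacteria. Mice have a pair of such genes side by side, Lyz1, used mainly by Paneth cells of the gut, and Lyz2, used by macrophages and granulocytes. S100a8 and S100a9 encode the subunits of calprotectin, a calcium and metal binding heterodimer that is abundant in neutrophils and monocytes. Granulocytes fill their granules in waves as they mature. Primary granules, made first, hold myeloperoxidase (Mpo) and the serine proteases neutrophil elastase (Elane) and proteinase 3 (Prtn3). Secondary granules, made later, hold lactoferrin (Ltf), lipocalin 2 (Lcn2, which binds bacterial siderophores) and neutrophilic granule protein (Ngp). The transcription factors PU.1 and C/EBP drive many of these genes.

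Lyz1 (chr10:117287796-117292868) and Lyz2 (chr10:117277334-117282274) lie on the minus strand of chromosome 10 of mm10, 5.52 kb apart. Their coding sequences are both 444 bases long and differ at 22 of the 444 positions (GENCODE M21). The first 90 coding bases of each are shown because they show how few bases separate reads of the pair, with the 7 bases that differ in capitals.
Lyz1: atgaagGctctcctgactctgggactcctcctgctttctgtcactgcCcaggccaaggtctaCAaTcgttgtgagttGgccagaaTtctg
Lyz2: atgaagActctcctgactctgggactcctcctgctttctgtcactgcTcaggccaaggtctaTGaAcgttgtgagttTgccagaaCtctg
Of all stretches of 50 bases in the Lyz1 coding sequence, 20.3% also occur in Lyz2, and of stretches of 100 bases 5.51% do. How the authors treated reads that fit both genes is not given in the sources used here, so the split of FPKM between Lyz1 and Lyz2 is uncertain. No other gene of the 10 had a transcript of another gene with at least 95% identity over at least 200 bases.

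The other genes fall into further neighbourhoods of mm10. S100a8 (chr3:90668978-90670035, plus strand) and S100a9 (chr3:90692632-90695721, minus strand) are 22.6 kb apart. Prtn3 (chr10:79879614-79883174) and Elane (chr10:79886312-79888216) follow each other on the plus strand at 3.14 kb. Ngp (chr9:110419747-110423012) and Ltf (chr9:111019271-111042767) lie 596 kb apart on the plus strand. Lcn2 (chr2:32384633-32387797, minus strand) and Mpo (chr11:87793581-87804413, plus strand) stand alone.

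S100a8, S100a9, Lcn2, Ngp and Ltf had similar profiles over the 8 libraries, as described further on, and their promoters are printed for that reason. Each is the 250 bases before the RefSeq gene start on GRCm38.p6, the assembly behind mm10, read along the gene. Capitals mark TTNNGNAA, a short form of the C/EBP site, on either strand.
S100a8 (chr3:90668821-90669070, plus strand): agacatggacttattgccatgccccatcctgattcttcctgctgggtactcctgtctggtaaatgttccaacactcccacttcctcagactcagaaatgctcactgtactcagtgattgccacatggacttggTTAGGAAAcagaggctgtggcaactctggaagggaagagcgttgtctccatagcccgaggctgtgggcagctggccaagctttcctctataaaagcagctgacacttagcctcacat
S100a9 (chr3:90695722-90695971, minus strand): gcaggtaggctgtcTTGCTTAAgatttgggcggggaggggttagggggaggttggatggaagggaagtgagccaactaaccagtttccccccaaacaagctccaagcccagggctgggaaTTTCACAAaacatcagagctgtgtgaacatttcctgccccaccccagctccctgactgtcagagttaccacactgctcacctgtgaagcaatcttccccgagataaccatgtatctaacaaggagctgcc
Lcn2 (chr2:32387740-32387989, minus strand): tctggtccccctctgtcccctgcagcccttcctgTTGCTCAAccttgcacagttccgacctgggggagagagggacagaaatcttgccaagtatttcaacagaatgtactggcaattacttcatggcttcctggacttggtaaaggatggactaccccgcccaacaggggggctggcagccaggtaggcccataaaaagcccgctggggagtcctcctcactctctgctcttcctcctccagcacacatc
Ngp (chr9:110419558-110419807, plus strand): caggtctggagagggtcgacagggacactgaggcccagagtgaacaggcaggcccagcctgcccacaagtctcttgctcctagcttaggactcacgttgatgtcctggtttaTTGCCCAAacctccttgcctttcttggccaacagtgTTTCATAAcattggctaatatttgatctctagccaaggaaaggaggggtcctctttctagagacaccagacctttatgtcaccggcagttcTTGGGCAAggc
Ltf (chr9:111019042-111019291, plus strand): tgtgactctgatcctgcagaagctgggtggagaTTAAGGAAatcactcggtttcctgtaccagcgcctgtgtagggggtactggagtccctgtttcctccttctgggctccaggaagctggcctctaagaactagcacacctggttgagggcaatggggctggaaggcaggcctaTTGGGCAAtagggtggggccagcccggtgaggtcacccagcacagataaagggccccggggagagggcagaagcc
These letters occurred in 7 of the 10 promoters and in 36.9% of the 32841 RefSeq promoters of that length. The 7 are these 5 genes and the lysozymes, with 3 matches in Ngp and 2 in each of S100a9 and Ltf. Mpo, Elane and Prtn3 had no such match in the window. GAGGAAG, a form of the PU.1 site, was found on either strand in all of these primary granule genes and in S100a8 and Lcn2, so in 5 of 10 promoters against 10.6% of all promoters. CCACCC, a core of sites bound by KLF factors, was in S100a9, Prtn3 and Ltf (3 of 10, against 28.1%). TATAAA, the TATA box, was in S100a8 (1 of 10, against 12.4%). No match overlapped one of another motif. A match of letters was not read as a bound site.

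Expression is given in FPKM, a level per length of transcript that is scaled to the mapped fragments of a library. FPKM hold no read counts, so the depth behind each value is unknown. Summed over all genes, FPKM were 497253, 537664, 540497 and 551608 in LysM0 to LysM3, and 448235, 460383, 483726 and 501965 in K2KO0 to K2KO3. With limma, log2(FPKM + 0.1) was compared between genotypes for the 10920 genes whose mean reached 1 FPKM. Fold changes on this scale understate those of low genes. A gene is called differentially expressed here where its adjusted p is below 0.05 and its log2 fold change is beyond 0.26 in either direction.

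Klf2 (chr8:72319033-72321656), the targeted gene, was at 44.1, 52.9, 64.7 and 72.8 FPKM in LysM0 to LysM3 and at 45.5, 41.6, 59.2 and 59.3 FPKM in K2KO0 to K2KO3. The groups overlapped, and the log2 fold change was -0.18 (SE 0.17, limma adjusted p = 0.460). A value for the whole gene leaves unseen whether the floxed exons were read. Because Klf2 was not clearly lower, the second group is called the libraries labelled K2KO.

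All 10 genes passed the filter. Lyz2 was lower in the libraries labelled K2KO, and the other 9 did not pass the test. Among all tested genes 18.4% were differentially expressed, 9.84% higher and 8.61% lower, so 1 of 10 is not above that background. The median log2 fold change of the 10 genes was -0.03, beside 0.01 for all tested genes.

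**Figure D1:**
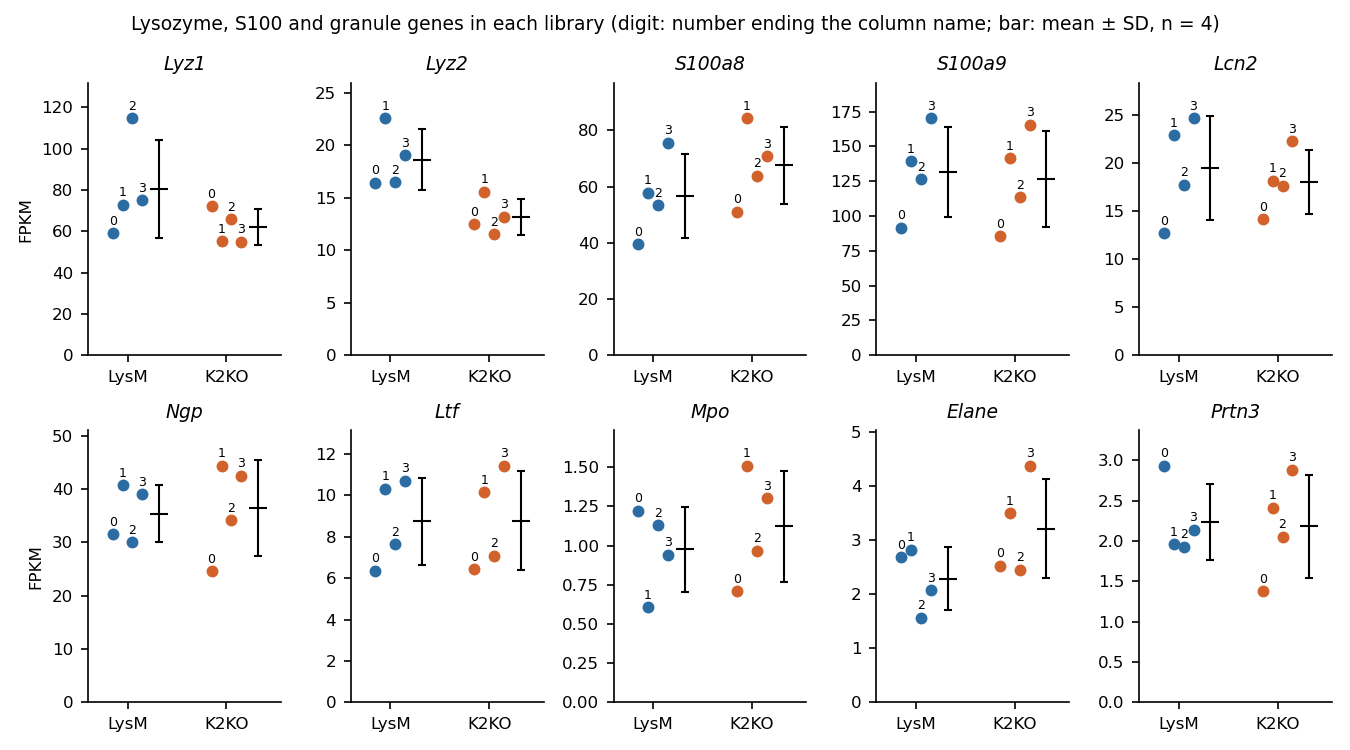
FPKM (vertical axes, each starting at 0) of the 10 genes in the 4 LysM libraries (blue) and the 4 libraries labelled K2KO (orange), with the number of the library beside each point and the mean ± SD (n = 4) as a black bar. Lyz2 is the only one of the 10 whose groups do not overlap, with 16.4 to 22.5 FPKM in LysM and 11.5 to 15.6 FPKM in K2KO.

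Lyz2, the lysozyme of macrophages and the locus that holds Cre, was at 16.4, 22.5, 16.5 and 19.0 FPKM in LysM0 to LysM3 and at 12.4, 15.6, 11.5 and 13.2 FPKM in K2KO0 to K2KO3. The highest K2KO value lay under the lowest LysM value, so the groups did not overlap. Such a separation was seen in 23.1% of all tested genes, 12.9% with K2KO higher and 10.2% with K2KO lower. The means were 18.6 ± 2.88 FPKM and 13.2 ± 1.73 FPKM (SD, n = 4 each). The log2 fold change was -0.49 (SE 0.12, 95% confidence interval -0.77 to -0.22, limma adjusted p = 0.0260), and an exact two-sided permutation test gave p = 0.0286, the smallest that 4 against 4 allows. Its call was lost without LysM1, LysM3, K2KO0 or K2KO2 (limma adjusted p = 0.0634, 0.0909, 0.0735 and 0.0755), while the direction held. Since Cre sits at the start of Lyz2 in both genotypes, neither group has an intact copy, and these values are reads assigned to Lyz2 and not a level of intact lysozyme M messenger. Lyz2 ranked 4135 among the listed genes by mean level.

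Lyz1, the Paneth cell lysozyme, stood above Lyz2 in all 8 libraries. It was at 59.1, 72.9, 114.6 and 75.0 FPKM in LysM0 to LysM3 and at 72.3, 55.0, 65.9 and 55.0 FPKM in K2KO0 to K2KO3. LysM2 was the highest, and the groups overlapped. Its log2 fold change was -0.34 (SE 0.19, 95% confidence interval -0.76 to 0.08, limma adjusted p = 0.205), and it was -0.16 without LysM2 and -0.47 without LysM0. The Lyz1 to Lyz2 ratio was 4.43 ± 1.71 in LysM and 4.81 ± 1.13 in K2KO libraries (SD, n = 4 each), a log2 difference of 0.15 (exact two-sided permutation test, p = 0.686). With 1 library left out it lay between 0.026 (without LysM1) and 0.39 (without LysM2). Of 8 other lysozyme family genes 2 were listed. Lyzl4, a sperm lysozyme, was at 1.76 and 1.61 FPKM and did not pass, and Lalba was listed at 0 in every library.

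S100a9 was the most abundant of the 10 genes in every library. It was at 91.7, 139, 126 and 170.1 FPKM in LysM0 to LysM3 and at 85.4, 141, 114 and 166 FPKM in K2KO0 to K2KO3. The range within each genotype was far wider than the distance between the means, 132 ± 32.5 FPKM and 127 ± 34.7 FPKM (SD, n = 4 each). The log2 fold change was -0.07 (SE 0.23, 95% confidence interval -0.58 to 0.45, limma adjusted p = 0.849). In bulk RNA such as this, fewer cells of a type and less RNA per cell cannot be told apart.

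S100a8, the partner subunit, was at 39.5, 57.8, 53.3 and 75.7 FPKM in LysM0 to LysM3 and at 51.1, 84.3, 63.9 and 71.0 FPKM in K2KO0 to K2KO3. The groups overlapped, with a log2 fold change of 0.27 (SE 0.20, 95% confidence interval -0.19 to 0.72, limma adjusted p = 0.351). It was 0.11 without LysM0 and 0.42 without LysM3. The S100a8 to S100a9 ratio varied less among the LysM libraries than either gene, at 0.431, 0.415, 0.422 and 0.445 in LysM0 to LysM3. In K2KO0 to K2KO2 it was 0.598, 0.596 and 0.563, above all LysM values, while K2KO3 with 0.428 lay among them. The log2 difference of the ratio was 0.34 and did not pass (exact two-sided permutation test, p = 0.0857). Without K2KO3 it was 0.45, and p fell to 0.0286. Leaving out the K2KO library that lay among the LysM values made the groups separate, so this p decides nothing. Without any other single library the exact permutation p lay between 0.0857 and 0.114, and exact sign-flips within the column numbers gave p = 0.25.

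The secondary granule genes had nearly equal means in the 2 genotypes. Ngp, a cathelicidin-related protein, was at 31.6, 40.8, 30.1 and 39.1 FPKM in LysM0 to LysM3 and at 24.6, 44.4, 34.2 and 42.5 FPKM in K2KO0 to K2KO3, so that the K2KO values enclosed the LysM values. Its log2 fold change was 0.02 (SE 0.18, 95% confidence interval -0.40 to 0.43, limma adjusted p = 0.954). Lcn2 was at 12.7, 22.9, 17.8 and 24.6 FPKM against 14.2, 18.2, 17.6 and 22.3 FPKM, and here the LysM values enclosed those of K2KO. Its log2 fold change was -0.08 (SE 0.21, 95% confidence interval -0.55 to 0.39, limma adjusted p = 0.795). Ltf, the iron-binding lactoferrin, was at 6.35, 10.3, 7.63 and 10.7 FPKM against 6.45, 10.2, 7.08 and 11.4 FPKM. The groups overlapped almost fully, and its log2 fold change was -0.0035 (SE 0.22, 95% confidence interval -0.50 to 0.49, limma adjusted p = 0.992). The intervals of all 3 genes include log2 fold changes from about -0.40 to 0.39, so changes of that size are not excluded.

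The primary granule genes were the lowest of the 10. Elane was at 2.69, 2.82, 1.57 and 2.07 FPKM in LysM0 to LysM3 and at 2.53, 3.50, 2.45 and 4.37 FPKM in K2KO0 to K2KO3. The highest values were in K2KO3 and K2KO1, the groups overlapped, and the log2 fold change was 0.47 (SE 0.23, 95% confidence interval -0.04 to 0.98, limma adjusted p = 0.162). Prtn3 ranged from 1.37 to 2.93 FPKM, with the extremes in K2KO0 and LysM0, and its log2 fold change was -0.06 (limma adjusted p = 0.855). Mpo ranged from 0.608 to 1.51 FPKM, and its mean over the libraries of 1.05 FPKM was just above the filter of 1. Its log2 fold change was 0.17 (limma adjusted p = 0.672).

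By mean level the order was S100a9, Lyz1, S100a8, Ngp, Lcn2, Lyz2, Ltf, Elane, Prtn3 and Mpo. Most neighbours in this order kept it in all 8 libraries. The exceptions were Lyz1 above S100a8 and Elane above Prtn3, each in 5 of 8 libraries, and Lcn2 above Lyz2 in 7 of 8. The summed level of the 3 primary granule genes was 5.50 FPKM in LysM and 6.51 FPKM in K2KO libraries, that of the 3 secondary granule genes 63.6 and 63.3 FPKM, and that of the calprotectin subunits 188 and 194 FPKM.

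Within each genotype the libraries differed in a shared way. In LysM and K2KO alike, S100a9, Lcn2 and Ltf were lowest in the library numbered 0, followed by 2, 1 and 3. Over the 8 libraries S100a9 and Ltf had Pearson's r = 0.94 on the log2 scale (exact permutation p = 0.000198, adjusted over 45 pairs of genes 0.00893) and Spearman's rho = 0.93 (exact permutation p = 0.00223, adjusted 0.0502). With the 2 libraries farthest from the median of S100a9 left out r was 0.91, and with each genotype centred on its own mean it was 0.95. Of 10919 other tested genes Ltf ranked 1 by r with S100a9, and Lcn2 ranked 3. S100a9 and Lcn2 had r = 0.93 and rho = 0.90 (exact permutation, adjusted p = 0.0274 and 0.0684), with r = 0.82 without the 2 farthest libraries. Lcn2 and Ltf had r = 0.90 and rho = 0.93 (adjusted p = 0.0190 and 0.0502, exact permutation), with r = 0.87 without them.

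The 10 pairs among S100a8, S100a9, Lcn2, Ngp and Ltf had r from 0.72 to 0.94 with a median of 0.81. All 45 pairs had a median r of 0.34, and 4 passed by r. The fourth was Lyz1 with Elane, which ran in opposite directions (r = -0.89, rho = -0.83, exact permutation, adjusted p = 0.0274 and 0.138, and r = -0.75 without the 2 farthest libraries). Lyz1 and Lyz2, though neighbours, had r = 0.26 (exact permutation, adjusted p = 0.761, and rho = 0.55, adjusted p = 0.427). The 8 points share their libraries, and the summed FPKM were also lowest in LysM0 and K2KO0 and highest in LysM3 and K2KO3. The part of library scale in these correlations was not tested. What the column numbers stand for is not given in the sources used here.

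**Figure D2:**
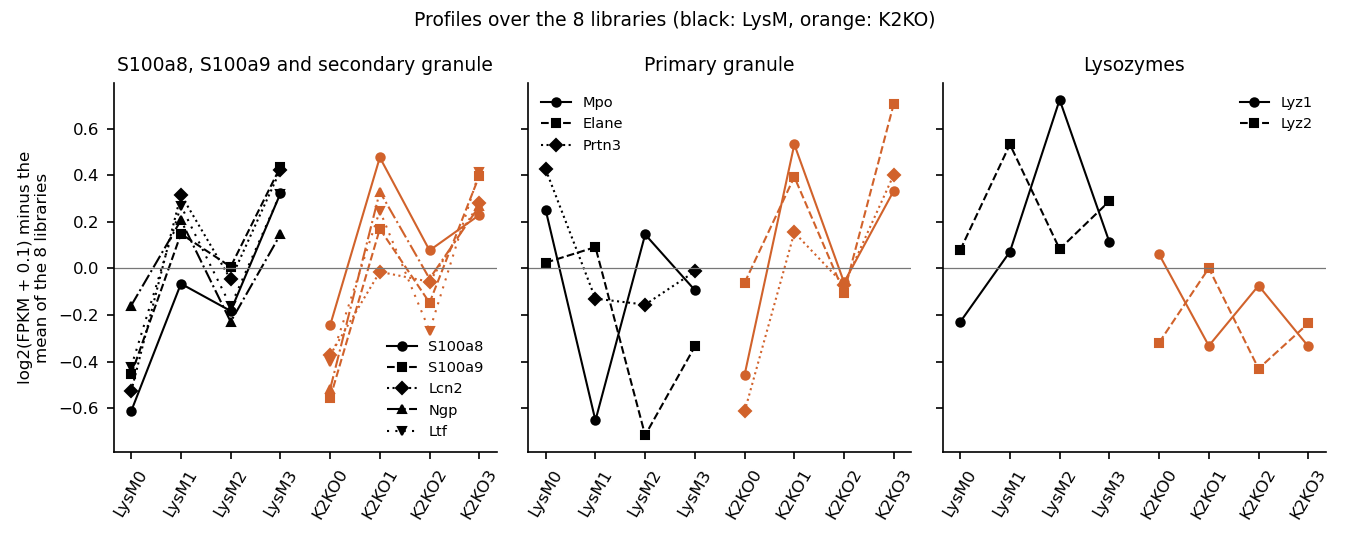
Log2(FPKM + 0.1) of each gene minus its mean over the 8 libraries, in 3 panels by role, with LysM in black and the libraries labelled K2KO in orange. Lines only join the values of a gene. In the left panel all 5 genes are below their mean in LysM0 and in K2KO0, and S100a9, Lcn2 and Ltf follow the order 0, 2, 1, 3 in each genotype.

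The tested genes whose profiles were most like that of Lyz2 over the 8 libraries were Llgl1 (r = 0.97), Pcbd2 (0.97), Ints5 (0.96), Laptm5 (0.95) and Poll (0.95). Among them Pcbd2 was differentially expressed, at 51.3 FPKM in LysM and 37.6 FPKM in K2KO libraries (log2 fold change -0.45, limma adjusted p = 0.0129). Over all tested genes 18.4% were differentially expressed. Lyz2 itself separated the genotypes, so choosing genes by its profile favours genes that differ between them, and this call is not read as a result. Those most like S100a8 were Ppp6c (0.94), Rfc4, Palld, Iglc3 and Smarcc1 (0.91), and none of these 5 was differentially expressed (limma adjusted p from 0.224 to 0.822). Llgl1, Ints5, Ppp6c, Rfc4, Palld and Iglc3 are each listed under a locus merged with other genes.

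Other granule genes were read beside them. Of 11 further secondary and tertiary granule genes 8 were tested, 2 were lower and none was higher, beside 8.61% lower and 9.84% higher among all tested genes. Camp, which encodes the cathelicidin antimicrobial peptide, was at 12.6, 14.8, 11.1 and 16.01 FPKM in LysM0 to LysM3 and at 4.04, 6.77, 4.99 and 9.78 FPKM in K2KO0 to K2KO3. Every K2KO value lay below every LysM value, with a log2 fold change of -1.14 (SE 0.24, limma adjusted p = 0.0178). The call was lost without LysM1, LysM3 or K2KO2 (limma adjusted p = 0.0543, 0.0738 and 0.0585). Camp lies 570 kb from its relative Ngp, and the Camp to Ngp ratio was 0.385 ± 0.0225 in LysM and 0.173 ± 0.0387 in K2KO libraries (SD, n = 4 each), a log2 difference of -1.18 (exact two-sided permutation test, p = 0.0286). That ratio was chosen after the values were seen.

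Cyba, a subunit of the NADPH oxidase that macrophages use too, was the most abundant of that list and fell from 1730 to 1326 FPKM (log2 fold change -0.38, limma adjusted p = 0.0229). With quantile normalization its log2 fold change was -0.06 (limma adjusted p = 0.671) and with the GC content and length correction -0.15 (limma adjusted p = 0.183), and its call was also lost without LysM1, LysM3, K2KO0, K2KO1 or K2KO2 (limma adjusted p from 0.0591 to 0.0946). Its value is uncertain, since the table lists Cyba under 1 merged locus with Irf8 and many other genes. The collagenase gene Mmp8 was at 4.70 ± 1.41 FPKM and 7.31 ± 1.44 FPKM (SD, n = 4 each) and did not pass (limma adjusted p = 0.0626). Of 6 further primary granule genes Ctsc and Srgn were tested, and neither passed. Srgn, the granule proteoglycan serglycin, was the most abundant at 112 and 109 FPKM. Ctsg, the protease cathepsin G, was at 0.267 and 0.279 FPKM, and Bpi was listed at 0 in all libraries.

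The defining markers of mature neutrophils were near 0. Ly6g was at 0.121, 0.306, 0.263 and 0.357 FPKM in LysM0 to LysM3 and at 0.234, 0.180, 0 and 0.225 FPKM in K2KO0 to K2KO3. Cxcr2 ranged from 0.122 to 0.30 FPKM, and Stfa1, Stfa3 and BC100530 were listed at 0 in every library. These values are uncertain for Stfa1 and BC100530, which are near-identical to each other, and for Cxcr2, which has near-identical stretches in other genes. Of the 11 markers 3 were tested and 1 was lower, beside 8.61% lower among all tested genes. Padi4, which citrullinates histones, fell from 8.06 ± 1.08 to 4.97 ± 0.721 FPKM (SD, n = 4 each, log2 fold change -0.69, limma adjusted p = 0.0126). Without LysM3 it was -0.63 and the call was lost (limma adjusted p = 0.0585). Mmp25 of the same list went the other way without overlap, at means of 0.0233 FPKM in LysM and 0.119 FPKM in K2KO libraries. It was near 0, under the filter and not tested. Such a separation with K2KO higher was seen in 12.9% of all tested genes. Csf3r, the G-CSF receptor and the most abundant (uncertain because of a near-identical gene model, AC105061.2), was at 25.2 and 28.7 FPKM and did not pass, nor did Retnlg.

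Summed over the 11 neutrophil markers the level was 32.6, 41.0, 35.9 and 44.3 FPKM in LysM0 to LysM3 and 43.2, 33.5, 39.2 and 37.6 FPKM in K2KO0 to K2KO3. In LysM these sums ran in the order of S100a9, and in K2KO they did not. Retnlg, a neutrophil resistin-like gene, was at 1.35, 5.69, 3.43 and 7.82 FPKM in LysM0 to LysM3, again in the order of S100a9, and at 2.60, 3.33, 5.12 and 4.64 FPKM in K2KO0 to K2KO3. The part of other cells in the granule gene levels was not tested.

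Markers of the macrophage were high in both groups. All 10 were tested, and 1 was higher and none lower, which is near the 9.84% of all tested genes that were higher. Cd68 was at 1834 and 1779 FPKM, Csf1r, the receptor for the growth factor in the medium, at 524 and 526 FPKM, and Adgre1, which encodes F4/80, at 433 and 440 FPKM in LysM and K2KO libraries. Mertk, an uptake receptor for dying cells, was higher in the libraries labelled K2KO, at 14.2 against 18.3 FPKM (log2 fold change 0.36, limma adjusted p = 0.0285), and the call held only without LysM0 or K2KO3 and was lost without each of the others (limma adjusted p from 0.0669 to 0.0938). Csf1r and Mertk are each listed under 1 merged locus with another gene, Hmgxb3 and Gm23172. Of 5 monocyte markers 3 were tested, of 5 dendritic cell markers 1, of 4 B cell markers 1 and of 11 markers of eosinophils, basophils and mast cells 3, and none of these passed. Their most abundant genes were Ccr2 (19.8 and 17.5 FPKM), Itgax (5.30 and 4.52), Cd79b (2.13 and 2.81) and Ear2 (4.07 and 5.51, uncertain because Ear1 is near-identical). Members of a list went both ways. Beside Itgax, the dendritic cell markers under the filter had higher K2KO means for Siglech (0.205 and 0.463), Cd209a (0.133 and 0.334) and Flt3 (0.284 and 0.520). That of Zbtb46 was lower (0.0816 and 0.0548). Beside Ear2, Prg2 was at 4.46 and 3.09 FPKM and Prss34 at 0.993 and 1.97 FPKM. No marker of T cells, erythroid cells or fibroblasts reached a mean FPKM of 1, the most abundant being Cd2, Hba-a1 (uncertain because Hba-a2 is near-identical) and Dcn. Summed over the 5 fibroblast markers the level was 0.454, 1.30, 0.263 and 0.147 FPKM in LysM0 to LysM3 and 3.19, 0.900, 0.556 and 1.81 FPKM in K2KO0 to K2KO3, with means of 0.541 and 1.61 FPKM. The groups overlapped, K2KO0 was the highest, and the part of such cells in the differences between genotypes was not tested.

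Most of the other tested S100 genes were lower in the libraries labelled K2KO. Of 15 genes on the list 12 were listed in the table and 7 tested, S100pbp among them, and of these 5 were lower and none higher, beside 8.61% lower and 9.84% higher among all tested genes, with a median log2 fold change of -0.42 beside 0.01 for all tested genes. S100a4, a calcium sensor linked to cell motility, was at 1125, 1634, 1961 and 1517 FPKM in LysM0 to LysM3 and at 645, 727, 949 and 687 FPKM in K2KO0 to K2KO3. S100a6, calcyclin, was at 1077, 1601, 1772 and 1578 FPKM against 634, 713, 839 and 770.4 FPKM. For both, every K2KO library was below every LysM library. The log2 fold changes were -1.04 (SE 0.18, limma adjusted p = 0.0111) and -1.01 (SE 0.16, limma adjusted p = 0.00839), and both calls held without any single library.

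S100a13 (-0.50), S100a11 (-0.42) and S100a10 (-0.34, the partner of annexin A2) were lower by less (log2 fold changes, with limma adjusted p = 0.0182, 0.0440 and 0.0329). Leaving out single libraries ended the call of S100a13 without LysM1, LysM3 or K2KO2 (limma adjusted p from 0.0539 to 0.0635), and those of S100a11 and S100a10 without any but LysM0 or K2KO3 (0.0682 to 0.128 and 0.0659 to 0.0997). With quantile normalization S100a10 was at -0.14 and S100a11 at -0.24 (limma adjusted p = 0.186 and 0.127), and with the GC content and length correction S100a13 was at -0.31, S100a11 at -0.35 and S100a10 at -0.23 (limma adjusted p = 0.0592, 0.0695 and 0.0812), which ended each of these calls. S100a11 is uncertain, since the listed genes Gm12854 and Gm7665 are near-identical to it, and so is S100a4, which shares 302 bases with the gene model Gm42674 and is listed in the table under 1 merged locus with S100a3. S100a1 (-0.25, limma adjusted p = 0.0818) and S100pbp (0.13, limma adjusted p = 0.190), which encodes an S100P-binding protein and is no S100 gene, did not pass. S100a4 and S100a6 lie in the same cluster of chromosome 3 as S100a9, with starts at -92.0 and -82.8 kb from its start in GENCODE M21, and S100a13 is at -181 kb. S100a11 and S100a10 lie farther off, at 2825 and 2859 kb. The S100a4 to S100a9 ratio was 12.1 in LysM and 6.30 in K2KO libraries, a log2 difference of -0.97 (exact two-sided permutation test, p = 0.0286), and the S100a6 to S100a9 ratio differed by -0.94 (exact two-sided permutation test, p = 0.0286). Both ratios were chosen after the values were seen. The first lost its call (exact permutation p = 0.0571) without LysM0, LysM1, LysM2, K2KO1 or K2KO3.

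**Figure D3:**
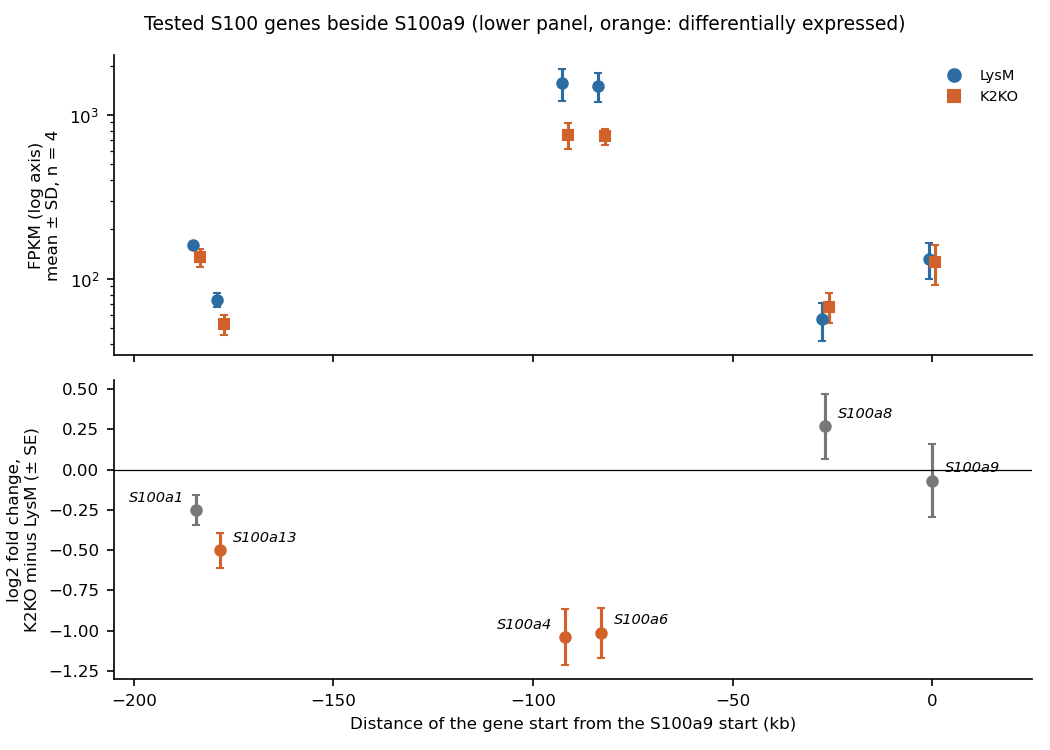
Tested S100 genes within the cluster, by distance of the gene start from that of S100a9 in kb (horizontal axis), with mean FPKM ± SD (n = 4, log axis) above and log2 fold change ± SE below. Symbols of one gene, and those of S100a1 and S100a13, are drawn slightly apart so that they can be seen. S100a4 and S100a6 lie near -1 on the log2 scale, and S100a8 and S100a9 are at 0.27 and -0.07.

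Genes that act with the granule proteins were also read. Of 10 transcription factors of granulocytes 6 were tested, and 1 was lower and none higher, beside 8.61% lower and 9.84% higher among all tested genes. Cebpd fell from 3.95 ± 0.771 to 2.56 ± 0.314 FPKM (SD, n = 4 each, log2 fold change -0.59, limma adjusted p = 0.0250). Its call was lost without LysM2, LysM3, K2KO1 or K2KO2 (limma adjusted p from 0.063 to 0.0828). Cebpd is uncertain, since it is listed under 1 merged locus with Spidr, and so is Irf8, which shares that of Cyba. Cebpb, the most abundant at 437 and 334 FPKM, Cebpa, Irf8, Runx1 and Spi1, which encodes PU.1 (243 and 211 FPKM, limma adjusted p = 0.0530), did not pass. Cebpe, needed for secondary granules, was at 0.586 and 0.520 FPKM, under the filter.

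Of 10 receptors and their helpers 7 were tested. Emb, which encodes embigin, a reported receptor of S100A8 and S100A9, was higher in the libraries labelled K2KO (43.4 ± 3.98 and 59.4 ± 10.8 FPKM, SD, n = 4 each, log2 fold change 0.44, limma adjusted p = 0.0468), although K2KO3 with 44.8 FPKM lay among the LysM values. The call of Emb was lost without any library other than K2KO3 (limma adjusted p from 0.0845 to 0.119). Emb is listed under 1 merged locus with Gm17509. Tlr4, a receptor of calprotectin, and Cd14, its most abundant helper at 1028 and 829 FPKM, did not pass. Every K2KO value of Cd14 lay below every LysM value, as in 10.2% of all tested genes. Ager of the same list was separated in that direction too, with means of 1.13 FPKM in LysM and 0.668 FPKM in K2KO libraries. It was under the filter and not tested. Cd36 had the higher mean in K2KO libraries (138 and 190 FPKM) and did not pass, so the list went both ways. Of 7 protease inhibitors 4 were tested and none passed, the most abundant being Cst3, cystatin C, at 3879 and 3086 FPKM (limma adjusted p = 0.0708). Among the 68 tested genes within 250 kb of one of the 10 starts, 3 were higher and 12 lower, with S100a4, S100a6 and S100a13 among the 12. Over all tested genes 9.84% were higher and 8.61% lower.

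**Figure D4:**
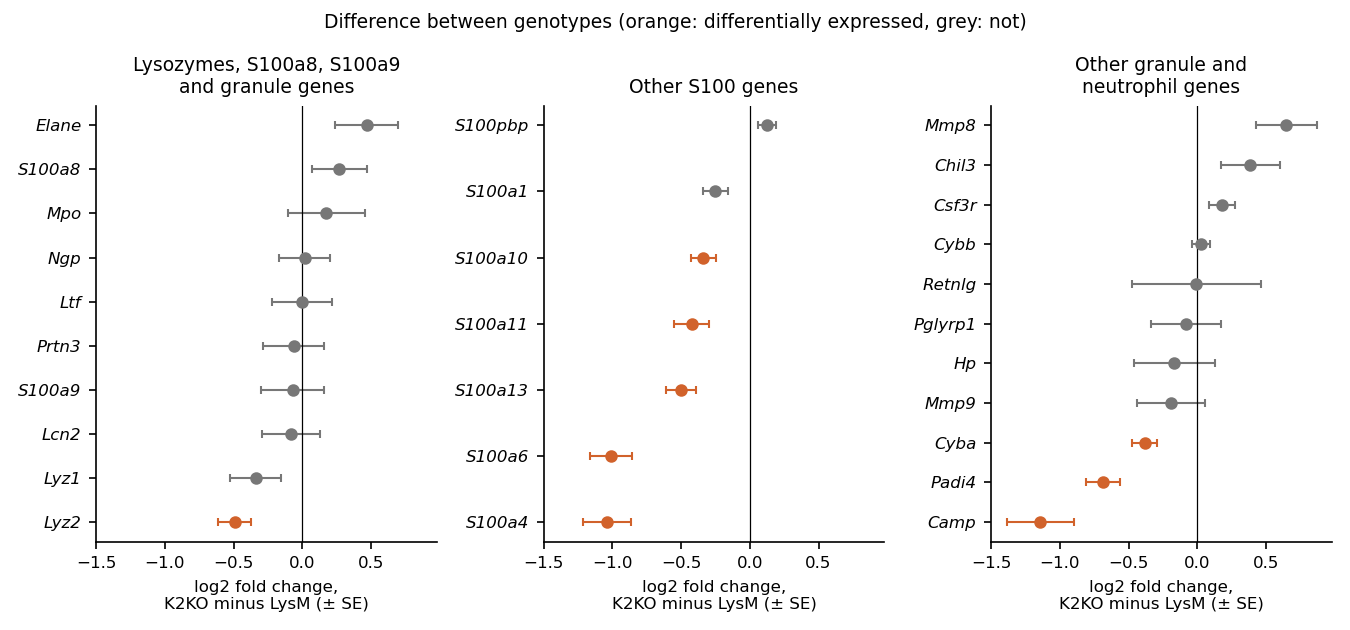
Log2 fold change (libraries labelled K2KO minus LysM, horizontal axis) ± SE for the tested genes of the 10 described, of the other S100 genes, and of the further secondary and tertiary granule and neutrophil genes, with differentially expressed genes in orange and others in grey. Lyz2 is the only orange point in the left panel, while 5 of 7 points in the middle panel and Cyba, Padi4 and Camp in the right panel are orange and below 0.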

How the data were processed

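Total RNA of BMDMs was sequenced by the authors, who aligned reads to mm10 with TopHat2 and computed FPKM with Cufflinks, according to the methods. The submitters' processing notes name STAR, Cufflinks and Cuffdiff instead of TopHat2, and versions are not given in the sources used here. The authors deposited 1 table of FPKM with a column per library. Of its 23761 genes, 23645 were matched to GENCODE M21. FPKM carry no counts, so no counting error is given. With limma 3.58.1 in R 4.3.3 (lmFit, eBayes with trend), log2(FPKM + 0.1) was compared for the 10920 genes whose mean reached 1 FPKM, without covariates, and p-values were adjusted by Benjamini-Hochberg. For single genes and ratios an exact two-sided permutation test was used (smallest p 0.0286). The genes described and the lists were chosen with earlier results of these data known. Genes named are those described, Klf2, list genes that passed, the most abundant gene and defining markers of each list, and the 5 genes most like Lyz2 and S100a8. Others, such as Mmp8, Retnlg, S100a1, Ager, Cd36 and Mmp25, and the Camp, S100a4 and S100a6 ratios, were chosen after their values were seen. Libraries of a group (n = 4) are given as biological replicates. Alternatives were other pseudocounts (1, 0.01) and filters (0.1, none), quantile and upper quartile scaling, no trend, ordinary least squares, a local regression on GC content and transcript length, a replicate block and each library left out.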

Additional observations from a re-analysis of the deposited data

Results flagged for a closer look

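In 3 of 72 groups of 4 libraries examined for the named genes, 1 library stood apart from the other 3 by most of the group's range, where chance gives about 3.6 (1 in 20). Cst3, cystatin C, was at 3311 FPKM in LysM0 and at 4000 to 4108 FPKM in the other LysM libraries. S100a11 was at 193 FPKM in K2KO0 and at 269 to 273 FPKM in the other libraries labelled K2KO. Srgn, serglycin, was at 86.4 FPKM in K2KO3 and at 113 to 119 FPKM in the others.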

How the results depend on the processing

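Over 19 alternatives Lyz2 was lower in all and passed in 12. Its log2 fold change was -0.49 without a filter (limma adjusted p = 0.0989), -0.49 by ordinary least squares (adjusted p = 0.0734) and -0.43 with the GC content and length correction (limma adjusted p = 0.0591), and lay between -0.57 and -0.40 with 1 library left out. Genes called, 2014 as reported, were 483 without a filter, 746 by ordinary least squares, 979 with the correction and 337 to 2837 with 1 library left out. Called genes of the lists, 11 as reported, were 1, 3, 6 and 2 to 15 under the same settings. Upper quartile scaling moved the share of higher calls from 53.3% to 64.1%, and the replicate block with the correction to 46.0%. The cause of these shifts was not tested. S100a6 passed in all 19 alternatives, S100a4 in 18, Padi4 in 16, Camp in 14, Cebpd and S100a13 in 12, Mertk in 10, Cyba in 9, S100a10 in 8, S100a11 in 6 and Emb in 5.

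Signs turned for genes that did not pass. S100a9 was at 0.081 with quantile normalization, Ltf at 0.040 with upper quartile scaling, and with the correction Prtn3 was at 0.20, Lcn2 at 0.079, Ltf at 0.017 and Klf2 at 0.053, alone or with the replicate block. With 1 library left out, the log2 fold change lay between -0.21 and 0.13 for Prtn3, -0.090 and 0.19 for Ngp, -0.014 and 0.36 for Mpo, -0.27 and 0.045 for Lcn2, -0.14 and 0.13 for Ltf, -0.23 and 0.11 for S100a9, -0.47 and -0.16 for Lyz1, 0.11 and 0.42 for S100a8, 0.31 and 0.58 for Elane, and -0.31 and -0.07 for Klf2. That of the S100a8 to S100a9 ratio lay between 0.29 and 0.45, and that of the Lyz1 to Lyz2 ratio between 0.026 and 0.39. Libraries of the same column number did not deviate together over all genes (r from -0.07 to 0.07). With a replicate block on that number 2057 genes were called and Lyz2 passed (-0.49, limma adjusted p = 0.0130), while the call of Emb was lost (limma adjusted p = 0.0517), and with block and correction 924 genes and 5 list genes were called. Exact sign-flips within the numbers gave p = 0.125, the smallest that 4 pairs allow, for the Camp to Ngp, S100a4 to S100a9 and S100a6 to S100a9 ratios, so none of these could pass. FPKM without counts limit what can be said of low genes such as Mpo.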
